A study of Mus musculus with 36 samples.

Results

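Unmethylated promoters of protein-coding genes were taken from the methylation table of a mouse pre-B cell line as groups of neighbouring CpG positions, called CpG clusters, that lay near a transcription start and carried almost no methylation in the Control cells. A cluster was a run of at least 20 listed cytosine positions at most 100 bp apart, and its level was the mean over the positions with a value in all 36 samples. A cluster counted as an unmethylated promoter when it lay on an autosome, overlapped the 1 kb either side of the start of a protein-coding gene (GENCODE M21, GRCm38) and had a mean level under 10% over the 18 Control samples. The rule kept 7551 clusters, which were 58.6% of the 12877 autosomal promoter clusters, 46.1% of the 16391 autosomal clusters and part of 18009 clusters in all. Of the other promoter clusters, 872 were partly methylated, with a Control mean of 10% to 80%, and 4454 were methylated, with a Control mean of at least 80%. Because the Control levels chose the clusters, low Control levels are not a result.

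Methylation was measured by reduced representation bisulfite sequencing (RRBS), in which genomic DNA is cut with MspI, treated with bisulfite and sequenced, so that the sites read lie near CCGG. The cells were the mouse pre-B cell line B3, transduced with a retroviral vector. The Ikaros series carried HA-tagged wild type Ikaros fused to the hormone-binding domain ERt2 and followed by IRES-GFP, a fusion protein that enters the nucleus when 4-hydroxytamoxifen (4-OHT) is added, whereas the Control cells held a vector with ERt2 and IRES-GFP but no Ikaros, which the study calls empty. Each series was collected at 0, 2, 6, 12, 18 and 24 h with 3 replicates, which made 12 groups and 36 samples. The labels give 0.5 µM 4-OHT for every sample of both series, whereas the methods of the study describe none at 0 h. Each series is 1 transduced line, so that a difference between the series compares these lines, and at later times also the induced protein. The values are smoothed levels without coverage, so the depth of each value is unknown. Nothing in the labels says that replicates came from separate transductions, and the p-values measure the spread between these samples.

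In mammals, cytosines followed by guanine are methylated over most of the genome, and the exceptions are mainly CpG islands, GC-rich stretches dense in CpG that hold the starts of most housekeeping genes. Methylation of a CpG island at a start is known to go with stable silencing, as at germline genes in somatic cells, while an unmethylated island marks a promoter that can be used but need not be in use. Ikaros, encoded by Ikzf1, is a zinc finger factor of lymphocytes that is needed for B cell development and directs chromatin complexes to its target genes.

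The stretches below show what such promoters look like, with 1 example for each kind of gene described later. Each was read from GRCm38 by coordinates, 5′ to 3′ on the strand of the gene, and holds at most 200 bases outside annotated exons, chosen as the stretch with the most CG dinucleotides measured in all 36 samples. These measured CG are in capitals. Rpl5, which encodes a protein of the large ribosomal subunit, stands for the core machinery of the cell and lies at chr5:107900656-107900855, plus strand, with a mean of 0.0771% in Control and 0.163% in Ikaros over the measured positions shown.
Rpl5: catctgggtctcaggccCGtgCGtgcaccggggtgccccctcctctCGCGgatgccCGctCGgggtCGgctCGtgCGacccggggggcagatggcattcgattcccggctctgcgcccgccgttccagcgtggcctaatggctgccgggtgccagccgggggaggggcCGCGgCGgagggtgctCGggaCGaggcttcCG
Vpreb1, which encodes a part of the surrogate light chain of the pre-B cell receptor, stands for the B-lineage genes and lies at chr16:16871056-16871255, minus strand, with 0.147% in Control and 0.504% in Ikaros.
Vpreb1: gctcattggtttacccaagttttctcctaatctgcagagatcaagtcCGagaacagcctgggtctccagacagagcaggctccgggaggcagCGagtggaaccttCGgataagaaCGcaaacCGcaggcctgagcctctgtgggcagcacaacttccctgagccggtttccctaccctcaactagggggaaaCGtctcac
Gata3, a T cell transcription factor, stands for genes of other lineages. Its stretch at chr2:9879578-9879777, minus strand, had 9.01% in Control and 9.32% in Ikaros.
Gata3: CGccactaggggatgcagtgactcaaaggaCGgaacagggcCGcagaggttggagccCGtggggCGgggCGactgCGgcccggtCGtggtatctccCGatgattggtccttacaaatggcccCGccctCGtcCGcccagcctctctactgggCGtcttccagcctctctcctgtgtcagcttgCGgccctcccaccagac
Nol4l had the smallest p of the promoters that were higher in Ikaros. The stretch at chr2:153443946-153444145, minus strand, in an intron, had 8.16% in Control and 35.7% in Ikaros.
Nol4l: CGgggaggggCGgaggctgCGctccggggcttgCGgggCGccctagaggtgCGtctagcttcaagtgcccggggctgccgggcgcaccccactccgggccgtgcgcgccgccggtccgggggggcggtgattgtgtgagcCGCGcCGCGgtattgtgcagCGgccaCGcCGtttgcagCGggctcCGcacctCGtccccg
Dbt, which encodes the E2 subunit of the branched-chain alpha-keto acid dehydrogenase complex, was lower in Ikaros. The intronic stretch at chr3:116513192-116513375, plus strand, had 8.30% in Control and 4.87% in Ikaros.
Dbt: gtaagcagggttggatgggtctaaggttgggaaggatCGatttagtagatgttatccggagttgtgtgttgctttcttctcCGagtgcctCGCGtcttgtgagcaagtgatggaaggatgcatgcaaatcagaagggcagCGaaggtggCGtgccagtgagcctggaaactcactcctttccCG
For contrast, the promoter of Pax2, a regulator of kidney and eye development, was methylated. The stretch at chr19:44755679-44755878, plus strand, upstream of the start, had 90.2% in Control and 88.0% in Ikaros.
Pax2: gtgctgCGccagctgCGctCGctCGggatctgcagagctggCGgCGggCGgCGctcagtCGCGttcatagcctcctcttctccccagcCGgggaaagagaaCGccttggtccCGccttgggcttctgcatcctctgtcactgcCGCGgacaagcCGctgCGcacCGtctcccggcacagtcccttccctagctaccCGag
The Rpl5 stretch holds 15 CG measured in every sample, the Nol4l stretch 16 and the Pax2 stretch 19, and other CG of these stretches, in lower case, were not measured in every sample. The Vpreb1 stretch has 6 measured CG and a GC content of 56.5%.

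The 7551 unmethylated promoters belonged to 7347 protein-coding genes, 66.3% of the 11075 genes with an autosomal promoter cluster. In 1214 of these genes more than 1 cluster was unmethylated, and at most 6 were. The clusters held 483272 positions with complete values, with a median of 51 a cluster. In 596 clusters (7.89%) fewer than 20 positions were complete, and 4 rested on a single position. The median length was 462 bp, the quartiles were 297 and 674 bp and the longest was 2266 bp. The longest clusters were those of Kmt2c (2266 bp, 0.321% in Control), a histone methyltransferase of enhancers, Cdk13 (2257 bp, 0.339%), a kinase of the transcription machinery, and Arid1a (2242 bp, 0.216%), a subunit of the SWI/SNF chromatin remodelling complex.

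Within the bound that the rule set, the levels lay close to 0. The median Control level was 0.425%, 6197 promoters (82.1%) were under 1%, 7361 (97.5%) were under 5% and 190 (2.52%) lay between 5% and 10%. Few promoters lay near the threshold, and 545 promoter clusters, 4.23% of 12877, had Control levels between 20% and 60%. Just inside the threshold were Adgre5 at 9.95%, Gpatch3 at 9.99% and Abhd8 at 10.0% in the Control mean, and just outside it were Plxnb2 at 10.1%, Qdpr at 10.2% and Itm2c at 10.2%. The Ikaros means of these 6 clusters were 14.3%, 11.2%, 9.30%, 2.24%, 8.61% and 15.2%, in the same order.

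The Ikaros levels did not enter the threshold, although a position had to have a value in the Ikaros samples too. Their median level was also 0.425%, and 7504 of the promoters (99.4%) had an Ikaros mean under 10%. Applied to the Ikaros means, the same threshold would have kept 7520 clusters, of which 7504 were shared, 16 were under 10% by the Ikaros mean only and 47 by the Control mean only. In every one of the 36 samples 7219 promoters (95.6%) were under 10% and 6508 (86.2%) under 5%. Of the 47 promoters at or above 10% in Ikaros, 45 had Control means of at least 5%. The other 2, singled out after their values were seen, were Inpp5a, a phosphatase of inositol phosphates, and Mroh6. For Inpp5a the Control samples ranged from 0.408% to 10.5% with a median of 2.50%, and the Ikaros samples from 5.30% to 29.6% with a median of 15.8%. For Mroh6 the Control range was 1.44% to 6.22% with a median of 3.22% and the Ikaros range 0% to 18.7% with a median of 12.2%.

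The SD of the 3 replicates of a group, pooled over the 12 groups, had a median of 0.427 percentage points over the unmethylated promoters, compared with 6.23 over the partly methylated and 1.51 over the methylated promoters, and it was 1.89 over the promoters at 5% to 10% in Control. An absolute SD is bound to be small in clusters chosen for levels near 0. The mean level over all unmethylated promoters ranged from 0.732% to 0.994% over the Control samples and from 0.730% to 1.08% over the Ikaros samples. The share of their positions listed at exactly 0 was 40.0% ± 8.79 (SD, n = 18) in Control and 52.7% ± 9.79 (SD, n = 18) in Ikaros. Ikaros 24 h replicate 2 stood apart with 79.4% of the positions at exactly 0 and a median promoter level of 0, and Control 0 h replicate 1 lacked a value at 11.6% of the positions of the table. Positions at or under 1% made up 82.5% ± 2.41 in Control and 82.3% ± 3.60 in Ikaros (SD, n = 18), so that the series differed in how often a low level was listed as 0 more than in how many levels were low. Levels at exactly 0 or 1 over the whole table made up 27.9% ± 4.89 of the Control values and 36.2% ± 7.63 of the Ikaros values (SD, n = 18). The number of promoters at or above 10% in a sample was 17 to 59 with a median of 26.5 in Control and 45 to 93 with a median of 57.5 in Ikaros, an order that the choice by Control levels favours.

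**Figure D1:**
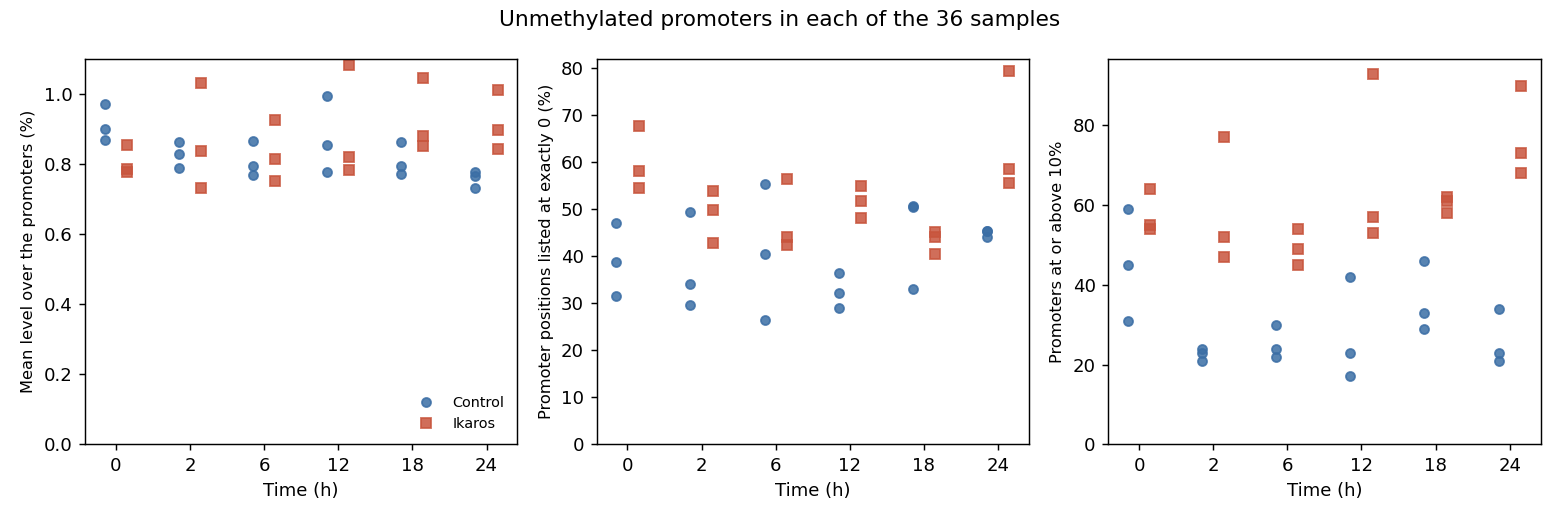
Each point is 1 of the 36 samples, by time (h) and series, with the mean level over the 7551 promoters (%), the share of their positions listed at exactly 0 (%) and the number of promoters at or above 10%. The mean levels of both series lie between 0.730% and 1.08%, while the share of exact zeros reaches 79.4% in 1 Ikaros sample at 24 h.

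The classes of promoters lay differently around the start and had near medians of base composition. A transcription start lay inside the cluster in 75.1% of the unmethylated, 63.9% of the partly methylated and 54.6% of the methylated promoters. Starts of a principal transcript were within 1 kb in 95.6%, 87.0% and 81.2%. Starts of genes of both strands shared a cluster window in 13.7% of the unmethylated promoters, against 7.11% and 2.69%. The median GC content was 68.6%, compared with 67.8% and 68.2%, and the median ratio of observed to expected CpG was 0.892, compared with 0.824 and 0.833. A GC content of at least 55% together with a ratio of at least 0.65 was found in 95.1% of the unmethylated, 84.3% of the partly methylated and 85.7% of the methylated promoters. These are descriptions of classes defined by level, with no test. The clusters near most genes were the Ubr7 cluster (0.414% in Control) with 4 gene names, and the Gm38394 cluster (0.198%), shared with Zbed6 and Zc3h11a, and the Mapkapk5 cluster (1.03%), shared with Adam1a and Gm42878.

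Short motifs were searched on both strands in the 250 bases before and 50 bases after GENCODE M21 starts (GRCm38). The classes were counted by the distinct nearest starts of their clusters, 7243 unmethylated, 844 partly methylated and 4000 methylated. The 20807 promoters called all were 1 start for each autosomal protein-coding gene, with or without a cluster. They are thus an unlike set, since each class needs a CpG cluster near the start. The motif CCGGAAGT, which ETS family factors bind, was in 10.0% of the unmethylated, 5.69% of the partly methylated, 1.35% of the methylated and 5.07% of all promoters. The NRF1 motif GCATGCGC was in 6.30%, 3.20%, 2.23% and 3.40%, in the same order. The CREB motif TGACGTCA followed with 3.71%, 2.96%, 1.95% and 2.43%, and the E-box CACGTG with 11.3%, 9.60%, 7.53% and 7.81%. The GC box GGGCGG was frequent in each class, at 76.7%, 76.5% and 66.5% compared with 45.7% of all promoters, and the TATA box TATAAA was rare in each class, at 4.32%, 5.21% and 5.20% compared with 13.1% of all. The core motif TGGGAA, which Ikaros binds, was in 18.2% of the unmethylated, 17.8% of the partly methylated, 19.9% of the methylated and 24.6% of all promoters, and CCAAT was in 34.8%, 29.0%, 28.5% and 37.9%. No motif searched contains another, and a match is a description of the sequence only.

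Methylation was lowest at the start itself and rose to both sides. Over the positions of the unmethylated promoters, the mean Control level was 0.422% in the 100 bp before the start and 0.483% in the 100 bp after it. It rose to 1.05% at 300 to 400 bp upstream and 0.980% at 300 to 400 bp downstream, and to 1.65% at 700 to 800 bp upstream and 1.78% at 800 to 900 bp downstream. The Ikaros means were 0.461% in the 100 bp before the start, 1.88% at 700 to 800 bp upstream and 2.04% at 800 to 900 bp downstream. The share of positions over 10% in Control was 0.203% in the 100 bp before the start and 2.69% at 800 to 900 bp downstream. The partly methylated promoters had such a dip too, with a Control mean of 37.3% in the 100 bp before the start and 52.8% at 700 to 800 bp upstream. The methylated promoters had 96.0% and 96.4% in these bins. The outer bins hold fewer positions, 1673 at 700 to 800 bp upstream against 68922 next to the start, and different clusters.

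**Figure D2:**
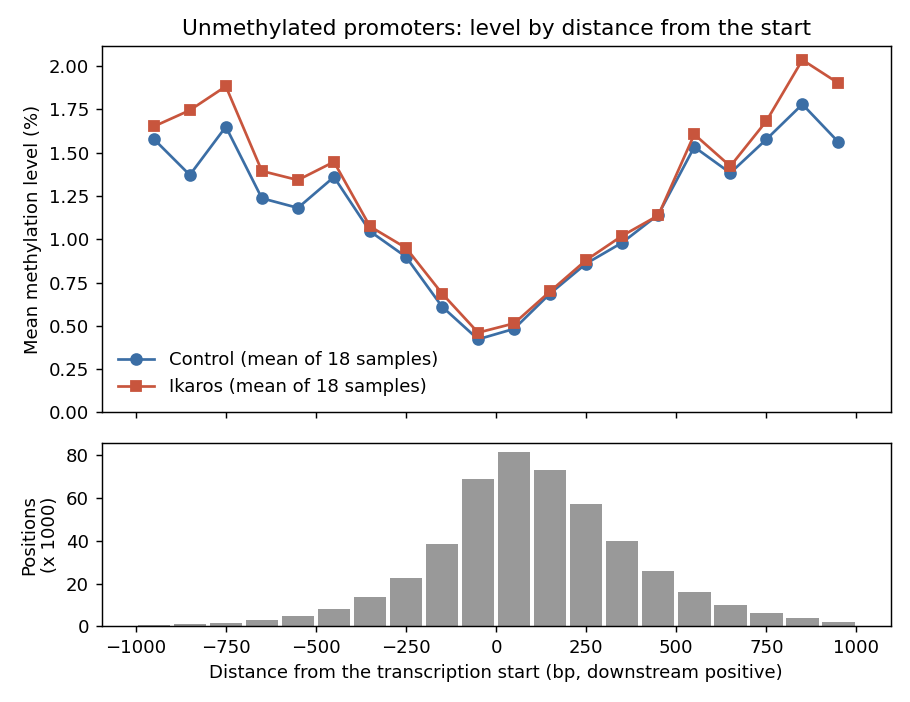
The upper panel plots the mean methylation level (%) of the unmethylated promoters in 100 bp bins of distance from the start (bp, downstream positive), for the mean of 18 Control and of 18 Ikaros samples, and the lower panel the number of positions in each bin (in units of 1000). Both lines are lowest next to the start, at 0.422% in Control and 0.461% in Ikaros, and lie above 1% beyond 400 bp.

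In 67 promoters (0.887%) at least 1 position had a mean over 50%, while the cluster mean stayed under 10%. In 62 of these 67 clusters the most methylated position lay within 100 bp of an end of the cluster, in 1 it lay within 100 bp of the start, and its median distance from the start was 454 bp. The median number of positions over 50% was 4. That 1 cluster, named after its values were seen, was at Macf1, which encodes a linker of actin and microtubules. No share over all positions stands beside these counts, and the median length of all unmethylated promoters is 462 bp. The counts thus describe these 67 clusters only. The 5 clusters with the widest range of positions were those of Traf3ip1, Nfkb1, Fam208a, Slc5a3 and Pcgf5. At Nfkb1, which encodes a subunit of NF-kappa-B, 9 of 132 positions had a mean of 92.6% in Control and 94.8% in Ikaros, while the median of the other positions was 0.745% in Control. These 9 positions spanned 82 bp, and the most methylated one lay 14 bp from the end of the cluster and 420 bp from the start. At Traf3ip1, a gene of cilium assembly, 8 of 97 positions had a mean of 72.5% in Control, with a median of 0.584% elsewhere. At Pcgf5, a Polycomb group subunit, 6 of 98 positions had a mean of 82.9% in Control, with a median of 0.273% elsewhere. At Fam208a, a subunit of the HUSH silencing complex, 12 of 146 positions had a mean of 72.0% in Control, and at Slc5a3, a myo-inositol transporter, 3 of 125 positions had 73.8%. The mean of such a cluster thus joins an unmethylated stretch and a few methylated positions.

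Genes of the core machinery were almost all unmethylated. Lists of genes were compared by the class of their promoters, counting a gene as unmethylated when at least 1 of its clusters was, beside 66.3% of all genes with a cluster. All 25 proteasome genes, all 22 replication genes and all 18 DNA repair genes with a cluster were unmethylated, with median Control levels of 0.447%, 0.265% and 0.346%. Of 26 ribosomal protein genes 25 were unmethylated, with a median of 0.250% in Control and 0.355% in Ikaros and a highest Control level of 0.917%. Examples were Rpl4 (0.168% in Control), Rpl5 (0.205%), Rpl7a (0.256% and 0.307% at its clusters), Rpl10a (0.252%) and Rpl11 (0.339%). The exception was Rpl3, whose only cluster lay 341 bp from a start that is not that of a principal transcript. Its Control samples ranged from 44.0% to 53.9% and its Ikaros samples from 45.5% to 67.4%.

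Of 32 genes of the B lineage listed, only 15 had a cluster. Of these, 11 (73.3%) were unmethylated, beside 66.3% of all genes with a cluster. The unmethylated ones were the surrogate light chain gene Vpreb1 (0.293% in Control, 0.382% in Ikaros), the transcription factors Pax5 (0.938%, 1.03%), Ebf1 (0.243%, 0.167%) and Tcf3 (0.383%, 0.430%), and also Foxo1, Lyn, Bach2, Irf8, Bcl11a, Lef1 and Bcl6. The Vpreb1 and Pax5 clusters lay over starts that are not those of a principal transcript. Ikzf3 (Aiolos), a relative of Ikaros, was partly methylated over its start, with Control samples from 19.4% to 30.1% and a median of 25.8% and Ikaros samples from 23.5% to 50.2% and a median of 35.9%. Syk, a kinase of the pre-B cell receptor pathway, had a Control mean of 23.2% and an Ikaros mean of 24.1%. Erg had 77.9% and 87.3% at a cluster 864 bp from a start of a transcript that is not principal. The 3 clusters of Ikzf1 itself, which encodes Ikaros, were methylated, with Control means of 97.9% to 98.0% and Ikaros means of 97.6% to 98.5%. They lay at chr11:11685400-11685649, chr11:11685839-11686045 and chr11:11686154-11686297 in exons of the annotation, at or within 276 bp of a start. All 6 genes with a cluster that the study followed as responding to Ikaros, Myc, Slc7a5, Hk2, Ldha, Foxo1 and Lig4, were unmethylated, with a highest mean of 0.646% in Control and 0.796% in Ikaros. The study chose these genes, so their direction is not independent. None of their 8 clusters was called between the series, beside 2.89% of all unmethylated promoters, and nothing is read from so few.

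The developmental regulators of other lineages were mostly methylated. Of 39 with a cluster, 36 were methylated in every cluster, among them Pax2, Pax3, Pax6, Sox2, Gata4, Foxa2 and Hoxa13. Pax7 (41.1% in Control) and Lhx2 (71.1% and 14.3% at the less methylated of its clusters) were partly methylated. The only unmethylated cluster was at Foxc1, a regulator of mesoderm development, with Control samples from 0.158% to 1.15% and a median of 0.725% and Ikaros samples from 0.187% to 1.06% and a median of 0.448%. A second Foxc1 cluster next to it had 14.2% in Control. Of 29 germline genes listed, only 14 had a cluster. Of these, such as the meiosis genes Sycp1, Sycp3 and Hormad1 and the RNA-binding gene Dazl, 13 were methylated. The exception was Zpbp, which encodes a sperm protein, with 0.343% in Control and 0.834% in Ikaros and a single Ikaros value as high as 12.6%. Of 32 products of differentiated tissues listed, only 8 had a cluster. None of these 8 was unmethylated, and the lowest was Mbp, a myelin protein, with 12.6% in Control.

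Genes of T, myeloid and erythroid cells stood between. Of 28 listed, only 10 had a cluster, and 2 of these were unmethylated. Klf1, a factor of red cells, had a cluster 804 bp from its start, with Control samples from 0.0542% to 7.05% and a median of 1.24% and Ikaros samples from 0.124% to 3.32% and a median of 1.14%. Gata3 had 9.01% in Control at a cluster 941 bp from a start, 42.4% at another cluster and 97.7% at the third. Tcf7, another T cell factor, had 44.0% in Control and 49.8% in Ikaros over its start, Lck 79.3% and 79.8%, and Kit 78.0% and 87.8%, while Cebpa, Cebpe, Tal1, Epor and Bcl11b were methylated. Of 21 genes known to be hypermethylated in cancers, 11 were unmethylated, among them Rb1, Vhl, Apc, Rassf1, Cdkn1a and Cdkn1b, and 8 were methylated, among them Sfrp1, Sfrp2, Dapk1, Rarb and Timp3. Of the neighbouring cell cycle inhibitors, Cdkn2a had 72.6% and 42.5% at its clusters in Control and Cdkn2b 1.48%.

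A gene could have both states. Of the 7347 genes with an unmethylated promoter, 286 (3.89%) also had a methylated cluster, and in 21 of them both clusters had the same nearest start. The clusters of such a pair were 104 to 785820 bp apart, with a median of 10030 bp, and in 42 genes they were under 1000 bp apart. In 166 genes only the unmethylated cluster lay near the start of a principal transcript, and in 33 only the methylated one. The largest gaps were at Zfp362 (0.340% and 98.8% in Control, 16351 bp apart), Gse1 (0.151% and 98.3%, 308875 bp apart), Atp5g2 (0.208% and 98.3%, 871 bp apart), Fbrsl1 (0.296% and 98.4%, 61648 bp apart) and Zbtb17 (0.0750% and 98.0%, 20596 bp apart). Atp5g2, which encodes a subunit of the ATP synthase, changed from one state to the other between clusters with different nearest starts. Each of these clusters had the start of a principal transcript within 1 kb.

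Between the series, the unmethylated promoters differed little. The difference of the means, Ikaros minus Control, had a median of 0.00413 percentage points, and 90% of the promoters lay between -0.516 and 0.593. The sign of this median is not settled, since it was 0.000204 without Control 24 h replicate 2 and lay between -0.0120 and 0.0177 without 1 replicate number. At least 1 point separated the means in 349 promoters (4.62%), and at least 5 points in 18, of which 17 were higher in Ikaros. A fall of 5 points was possible only for the 190 promoters at 5% or more in Control, while a rise was possible for all, so the rule favours this split. The 1 that was lower by 5 points, singled out after its values were seen, was Rhog, where the Control samples ranged from 0% to 100% with a median of 0.206% over 8 positions and the adjusted p was 0.714. For the comparison of the series, limma was run on cluster means of the M-value, the log2 ratio of the methylated to the unmethylated share, with the time point as a factor. The 16734 clusters with a complete position entered the fit, without the 1275 that had none, and the p-values were adjusted by the method of Benjamini and Hochberg at a threshold of 0.05. Position levels under 1% count as 1% in the M-value, so that differences among such positions were not seen by the test.

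By this test 218 unmethylated promoters (2.89%) were called, beside 4.84% of all clusters. Of these, 116 (1.54% of the promoters) were higher in Ikaros, beside 3.71% of all clusters, and 102 (1.35%) were lower, beside 1.13% of all clusters. The Control side of the contrast chose the promoters, so nothing is read from these shares. With the mean of all 36 samples as the rule, 206 of 7531 promoters were called, 103 in each direction. On the arcsine scale 139 were higher and 168 lower, and leaving out 1 replicate number gave 82 to 148 calls. The calls were small, with a median size of 1.36 points against 0.112 for promoters that were not called, and 13 reached 5 points. Called promoters made up 0.678% of those under 1% in Control, 11.4% of those from 1% to 5% and 22.6% of those from 5% to 10%. In a fit of the 2 h to 24 h samples alone, 182 promoters (2.41%) were called, beside 4.64% of all clusters. At 0 h 165 of the 182 (90.7%) had the same direction, with a median difference of 1.17 points in that direction, beside 649 of the 776 called clusters (83.6%). The Control samples at 0 h entered the choice of the promoters but not this fit. Exact values were also more frequent in Ikaros, as given above. With the shares of missing and of exact values as covariates, 88 promoters (1.17%) were called, beside 2.00% of all clusters. Of the 88, 51 were higher and 37 lower, and 78 were among the 218.

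**Figure D3:**
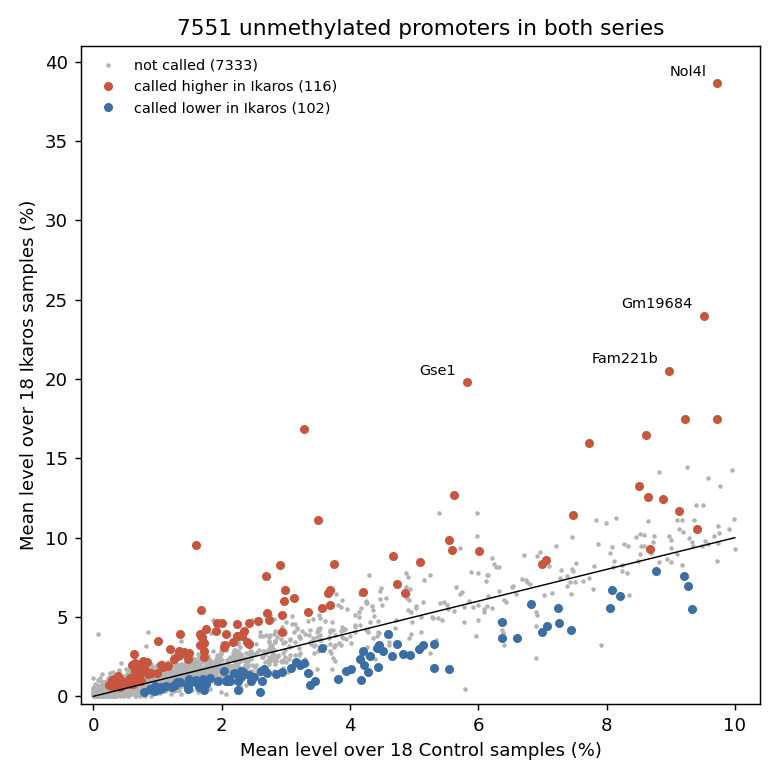
Each point is 1 of 7551 unmethylated promoters, with its mean level over 18 Control samples on the horizontal and over 18 Ikaros samples on the vertical axis (both %), and the line marks equal levels. The 116 promoters called higher in Ikaros lie above the line, with Nol4l at 38.6%, and the 102 called lower lie below it; by the rule no Control mean reaches 10%.

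Nol4l had the largest difference among the promoters called higher in Ikaros. The cluster at chr2:153443595-153444205, 274 bp from the nearest start, had 39 complete positions. Its Control samples ranged from 4.91% to 28.8% with a median of 8.98%, and its Ikaros samples from 29.5% to 63.7% with a median of 37.4%. The ranges did not overlap. The difference of the M-values was 2.82 (SE 0.22, adjusted p = 3.50e-10 by limma). At 0 h the means were 7.24% in Control and 36.5% in Ikaros, and at 24 h 15.3% and 41.3%. The highest Control sample was Control 24 h replicate 2, while the other samples of that group had 9.09% and 7.92% and the next highest Control sample had 11.7%. Without this library the M-value difference of Nol4l was 2.95 (adjusted p = 1.27e-12). Nceh1, an ester hydrolase, was the other called promoter whose ranges did not overlap and is named for that reason after its values were seen, with 2.27% to 5.60% in Control and 5.94% to 12.5% in Ikaros. Calls without overlap were 2 of the 7551 promoters (0.0265%), beside 0.0478% of all clusters.

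Among the next promoters by p, Control 24 h replicate 2 was again the highest Control sample at Gse1, Mycn and Pde8a, and without it their M-value differences were 2.34, 1.55 and 1.25. Gse1 at chr8:120487589-120488104 ranged from 2.83% to 14.4% in Control with a median of 4.26%, and from 10.0% to 28.5% in Ikaros with a median of 19.4%. Of its 18 Ikaros samples 1 lay under the highest Control sample, and the M-value difference was 2.23 (SE 0.22, adjusted p = 2.82e-08). Other clusters of the same gene were at 0.151% and 98.3%, as given above. Mycn, a proto-oncogene of the Myc family, at chr12:12939523-12940337 ranged from 1.21% to 7.71% in Control with a median of 2.05%, and from 5.34% to 11.0% in Ikaros with a median of 7.64%. There 9 Ikaros samples lay under the highest Control sample, and the M-value difference was 1.46 (SE 0.15, adjusted p = 2.82e-08). Pde8a, a cAMP phosphodiesterase, at chr7:81213023-81214297 ranged from 0.543% to 2.57% in Control with a median of 0.917% and from 1.48% to 5.47% in Ikaros with a median of 3.21% (M-value difference 1.20, SE 0.12, adjusted p = 5.06e-08). Its series overlapped in 4 Ikaros samples. H2-T23, a nonclassical MHC class I gene, at chr17:36032275-36032449 ranged from 0.586% to 3.51% in Control with a median of 1.58% and from 0% to 9.57% in Ikaros with a median of 5.83% (M-value difference 1.60, SE 0.20, adjusted p = 1.16e-06). In Ikaros its 24 h mean was 2.33% and its 0 h mean 6.48%. MHC class I genes are similar to each other, and how reads were split between them was not tested.

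The promoters called lower in Ikaros started from Control means under 10% by the rule, which caps how far they could fall. Rnf227, a RING finger gene, at chr11:69340876-69341020 ranged from 1.20% to 5.62% in Control with a median of 3.78%, and from 0.427% to 2.84% in Ikaros with a median of 1.68%. Of its 18 Ikaros samples 12 lay above the lowest Control sample, 1 Control sample lay under the highest Ikaros sample, and the M-value difference was -1.23 (SE 0.16, adjusted p = 1.91e-06). Dbt at chr3:116513029-116513375 ranged from 3.72% to 8.93% in Control with a median of 6.55%, and from 2.00% to 4.93% in Ikaros with a median of 3.91% (M-value difference -0.93, SE 0.12, adjusted p = 2.24e-06). There 11 Ikaros samples lay above the lowest Control sample, and 3 Control samples lay under the highest Ikaros sample. Trim7, a ubiquitin ligase, at chr11:48837391-48838197 ranged from 2.10% to 4.18% in Control with a median of 3.12% and from 0.589% to 2.60% in Ikaros with a median of 1.83% (adjusted p = 3.41e-06). Ppp1r15b, which guides a phosphatase to the initiation factor eIF2, at chr1:133131116-133131868 ranged from 0.287% to 4.42% in Control with a median of 2.08% and from 0% to 2.31% in Ikaros with a median of 0.206% (adjusted p = 4.83e-06). Cpeb3, a regulator of polyadenylation, at chr19:37174536-37174869 ranged from 4.02% to 9.57% in Control with a median of 7.01% and from 2.20% to 5.49% in Ikaros with a median of 3.98% (adjusted p = 6.74e-06). In each of these 5 promoters the ranges of the series overlapped.

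**Figure D4:**
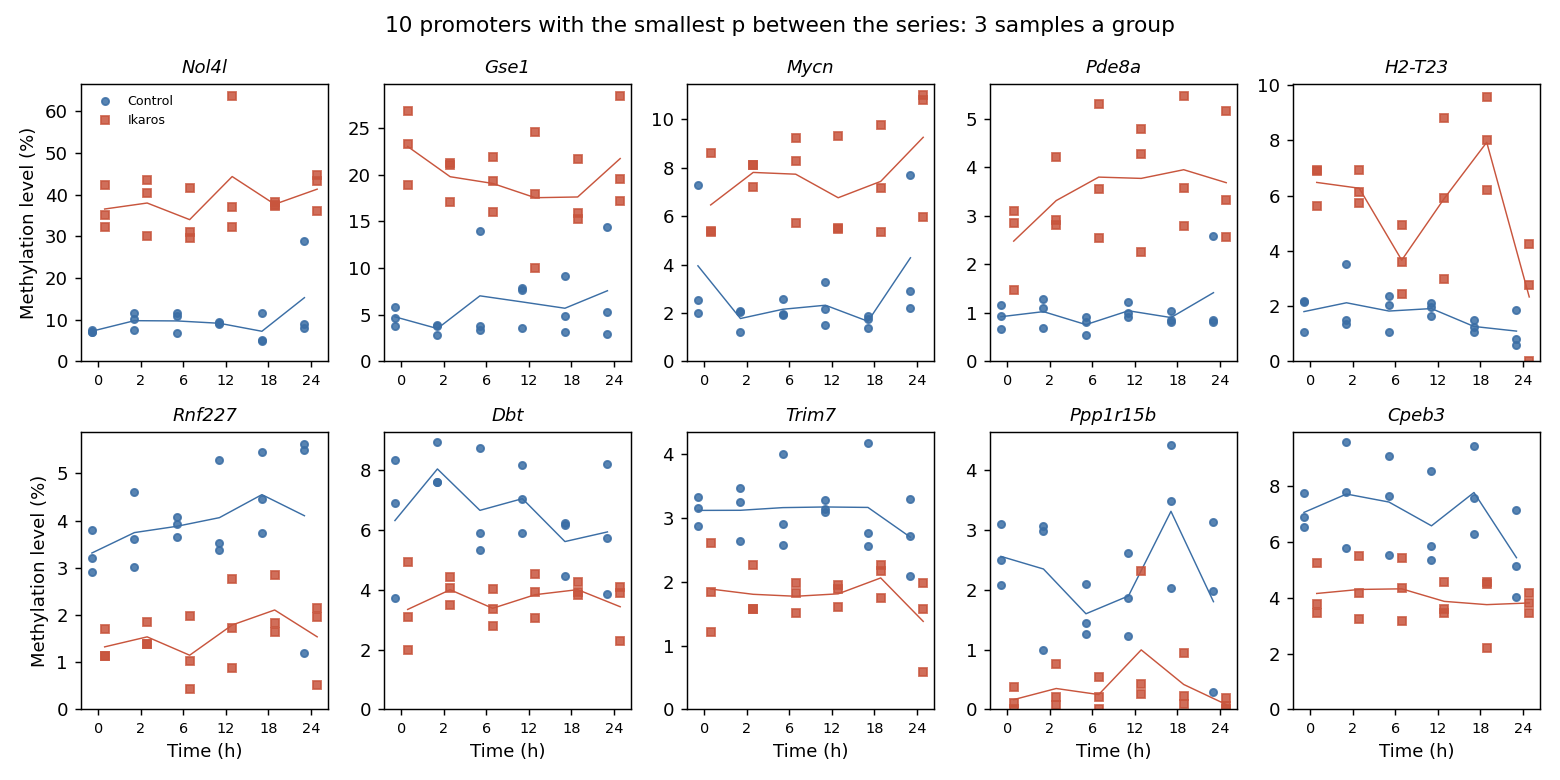
Each panel is 1 of the 10 promoters with the smallest p between the series in each direction, with time (h) on the horizontal and methylation level (%) on the vertical axis, points for the 3 samples of a group and lines through the group means. The 5 upper promoters are higher in Ikaros from 0 h on and the 5 lower ones lower, and the vertical axes differ between panels.

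In the gene lists, 2 of 27 proteasome clusters were called, 1 of 20 DNA repair clusters, 1 of 18 B-lineage clusters and 3 of 16 clusters of genes hypermethylated in cancers, beside 2.89% of all unmethylated promoters. None of the 30 ribosomal and 23 replication promoters was called. Psmd1, a subunit of the regulatory particle of the proteasome, was higher in Ikaros, with 1.23% to 5.28% in Control and 2.93% to 10.2% in Ikaros (adjusted p = 0.000516), and so was Psmb1 with means of 0.695% and 1.10% (adjusted p = 0.0372). Fancd2, a gene of DNA crosslink repair, was higher with means of 0.241% and 0.729% (adjusted p = 0.0371). Among the B-lineage genes Bach2, a repressor of plasma cell differentiation, was lower at 1 of its 2 clusters, with means of 0.970% in Control and 0.415% in Ikaros (adjusted p = 0.0282). Among the genes hypermethylated in cancers, Socs1, an inhibitor of cytokine signalling, was higher with 0.531% to 1.67% in Control and 0.986% to 3.79% in Ikaros (adjusted p = 0.000618). Cdkn2b was lower with 0.229% to 2.68% in Control and 0% to 1.76% in Ikaros (adjusted p = 0.00260), and 1 Runx3 cluster was lower with means of 1.04% and 0.433% (adjusted p = 0.0384). All of these means lay under 7%, and the ranges of the series overlapped in each.

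The other 2 promoters with an Ikaros mean of at least 20% were Fam221b and Gm19684. Fam221b, on the start shared with Tmem8b, ranged from 5.42% to 12.4% in Control with a median of 9.16% and from 4.35% to 35.3% in Ikaros with a median of 19.9% (adjusted p = 0.000364). Gm19684 ranged from 3.12% to 21.3% in Control with a median of 9.33% and from 9.14% to 51.5% in Ikaros with a median of 24.1% (adjusted p = 0.000733), and its highest Control sample was Control 24 h replicate 2. With covariates for missing and exact values Gm19684 was no longer called (adjusted p = 0.315), while Fam221b was (adjusted p = 0.0434). Both vary among the Ikaros samples, and Fam221b and Gm19684 were among the 5 promoters with the largest SD there (8.72 and 11.9 points).

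The other 3 were unmethylated in most samples and high in single ones. Pusl1, a pseudouridine synthase gene, reached 45.0% in Ikaros 24 h replicate 2 and 24.1% in the second highest Ikaros sample, with an Ikaros median of 2.17%. Zfp219, a zinc finger gene, reached 45.4% in Ikaros 6 h replicate 2, while its next value was 5.09% and its median 0%. Selenow, a selenoprotein gene, reached 33.0% in Ikaros 24 h replicate 3 and 15.5% in the next sample, with a median of 0.0174% and a Control range of 0% to 0.450%. None of the 3 was called between the series (adjusted p = 0.568, 0.815 and 0.175 by limma).

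Over time, few unmethylated promoters were called. Position levels under 1% count as 1% in this test too, so a lack of calls does not show a lack of change. In the Ikaros series 5 promoters (0.0662%) were called over the 6 time points by the moderated F test of limma, beside 0.0418% of all clusters. An unadjusted p under 0.05 was found for 583 (7.72%). The 5 were Prrc2a, Ly75, Fam8a1, Wwp1 and Bag2, and no Ikaros sample of any of them exceeded 3.19%. Prrc2a had 2.60%, 1.48% and 1.40% in the 24 h samples and 0% to 0.791% in the other Ikaros samples (adjusted p = 0.00638). Ly75, an endocytic receptor of dendritic and B cells, had 0.728%, 3.19% and 2.78% at 12 h and 0% at 24 h (adjusted p = 0.0116). The other 3 were of the same size. Fam8a1, a gene of protein degradation at the endoplasmic reticulum, had 2.54%, 2.04% and 2.89% at 2 h and 0% in all samples at 24 h (adjusted p = 0.0218). Wwp1, a ubiquitin ligase gene, had 2.43%, 2.34% and 1.50% at 24 h (adjusted p = 0.0353), and Bag2, a cochaperone of Hsp70, had 1.75%, 1.68% and 1.37% (adjusted p = 0.0389). With the replicate block Bag2 was no longer called (adjusted p = 0.0675). On the level scale only Prrc2a and Fam8a1 of the 5 kept their calls, and on the arcsine scale none of the 5 did. Without replicate 1, 2 or 3, at most 1 of the 5 kept its call each time, Ly75, Fam8a1 and Prrc2a in that order. With the Ikaros samples fitted alone 0 were called, and without Ikaros 24 h replicate 1 the count was 22, without Ikaros 24 h replicate 2 it was 31. No share of all clusters stands beside these counts, so they are not read as particular to the promoters.

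In the Control series limma called 0 promoters over time, beside 0% of all clusters, and 0 with the levels or the arcsine scale in place of M-values. An unadjusted p under 0.05 was found for 206 (2.73%). The promoters with the smallest p were Ramp1 (adjusted p = 0.226), Ano10 (0.506) and Pfdn1 (0.660). Ano10, a gene of the anoctamin family, had a Control median of 6.79%, with a 0 h mean of 10.9% and a 24 h mean of 5.58%, compared with 3.27% and 5.63% in Ikaros, and was lower in Ikaros between the series (adjusted p = 9.38e-06). Ramp1, a partner of peptide hormone receptors, reached at most 2.68% in Control, and Pfdn1, a subunit of the chaperone prefoldin, at most 2.63%.

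A different course over time in the series was called for 0 promoters by limma, beside 0% of all clusters, and 0 on the level and arcsine scales. An unadjusted p under 0.05 was found for 259 (3.43%). Without Ikaros 24 h replicate 1 the count of calls was 6 and without Ikaros 24 h replicate 2 it was 2, with no share of all clusters beside them. The smallest p belonged to Ly75 (adjusted p = 0.335), Prrc2a (0.419) and Parp4 (0.419). Parp4 had means of 0.673% in Control and 2.07% in Ikaros at 0 h, and 0.852% and 0.824% at 24 h.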

How the data were processed

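RRBS was measured in 36 samples of B3 cells. Before deposit, the authors mapped trimmed reads to GRCm38 with Bismark 0.10.1, defined CpG clusters, limited the coverage of highly covered sites and smoothed the levels. The deposited levels are fractions from 0 to 1, beside M-values, on a log2 scale, of levels limited at 1% from below. Coverage was not used here, so replicate spread alone describes the precision, and smoothed neighbours are not independent.

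Clusters, their means and promoter motifs were computed in Python 3.11.15 (pysam 0.24.0, pandas 2.3.3, numpy 2.4.6). The limma package 3.58.1 of R 4.3.3 tested cluster mean M-values (lmFit, eBayes), with Benjamini-Hochberg adjustment over all clusters. The series were compared in a fit of series and time point, and the tests over time used 1 fit of the 12 groups. These fits were tested on simulated data. The promoters, the 11 gene lists and the tests were chosen with earlier results of these data known. Genes were named by fixed ranks of p, level, spread, length and list order. By the labels, replicates 1 and 3 were batches 1 and 4, and replicate 2 was batch 2 at 0 h and batch 3 later. Deviations of samples with the same number had a mean correlation of 0.000417 (-0.0650 to 0.0855). Alternatives changed the scale, the block, the covariates, the libraries and the rule.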

Additional observations from a re-analysis of the deposited data

How the results depend on the processing

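The number of unmethylated promoters, 7551, stayed between 5674 and 7828 under the other thresholds, windows and means tried. Of the 218 promoters called between the series, the other scales, membership rules, time points and blocks kept the count within 1.5 times, with 224 under the replicate block, 227 with batch as a block and 307, the highest, on the arcsine scale, where 139 were higher and 168 lower. With covariates for missing and exact values it was 88, and leaving out 1 replicate number gave 82 to 148. The 10 promoters named with the smallest p kept their direction and call in all 110 alternatives run for them. The membership rules were not among these. By the Ikaros mean, Nol4l (38.6%) and Gse1 (19.8%) would not count as unmethylated promoters. Over time in Ikaros the count, 5, was 3 on the level scale, where of the 5 named promoters Prrc2a and Fam8a1 passed, 2 on the arcsine scale, where none of the 5 named passed, 4 under the replicate block, 8 to 33 without 1 replicate number, where at most 1 of the 5 named passed each time, 0 with the series alone, 22 without Ikaros 24 h replicate 1 and 31 without Ikaros 24 h replicate 2. Over time in Control the count was 0 to 5 without 1 replicate number and 1 without Control 0 h replicate 1. For a different course it was 3 to 5 without 1 replicate number, and 6 and 2 without the 2 Ikaros libraries at 24 h. The replicate block ended the call of Bag2 over time. The series alone and the single Ikaros libraries were chosen after seeing the data. The cause of these shifts was not tested. Apart from the fits with covariates and of the 2 h to 24 h samples, no share of all clusters stands beside these counts. They are thus not read as particular to the promoters. Depth is unknown, and most levels lie under the 1% at which the M-value is limited.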
